A study of Mus musculus with 56 samples.

Results

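The 8 genes described here, Hnf4a, Foxa1, Foxa2, Foxa3, Onecut1, Onecut2, Cebpa and Prox1, encode the liver-enriched transcription factors. They are the 8 rows carrying these symbols among 21888 gene symbols in a poly-A RNA-seq table of 14 mouse livers. This rule uses no measured value, but the 8 were chosen with earlier results of these data known. All mice were 129Sv/J. The floxed animals carried LoxP sites around the miR-122 precursor, and an rAAV8 vector with Cre under the Ef1a promoter was given to remove it. Livers were taken from uninjected floxed mice (day 0, n = 3), from floxed mice 21 days (n = 3), 45 days (n = 3), 100 days (n = 1) and 200 days (n = 1) after AAV-Cre, and from mice with a germline miR-122 knockout (n = 3). The 100-day and 200-day livers were treated as 1 group of 2. Ages and sex are not given in the labels. The day 0 mice received no vector, so vector and excision cannot be told apart, and the knockout mice were a different line from the floxed controls.

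Liver-enriched factors belong to several DNA-binding families that bind together at the promoters and enhancers of hepatocyte genes and at each other's genes. HNF4A is a nuclear receptor needed for the expression of much of the hepatocyte programme, the FOXA proteins are forkhead factors that bind early at liver genes in development, the ONECUT proteins carry a cut domain and a homeodomain, C/EBPα is a basic leucine zipper factor of metabolic genes, and PROX1 is a homeodomain protein of hepatocytes that also marks lymphatic endothelium. ONECUT factors and PROX1 are known for their part in the separation of hepatocytes from bile duct cells during development. The comparisons below ask how much messenger RNA of each factor the liver held before and after miR-122, the most abundant microRNA of hepatocytes, was lost.

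The genes lie at separate places in the mm9 genome, each with 1 row in the table and no other row overlapping it. In the 300 bases around the start of each row, 250 before it and 50 after it, the letters of motifs of the forkhead, ONECUT and C/EBP families of this group, or of HNF1 factors, which are liver factors outside it, were found in 5 genes. A stretch from each of 4 genes is printed to show these letters in their surroundings, 1 for each motif. The motif letters were chosen with the sequences in view. The stretches run 5′ to 3′ on the gene's strand, with the matching letters in capitals.
Hnf4a: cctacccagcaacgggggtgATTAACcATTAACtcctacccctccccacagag
Foxa1: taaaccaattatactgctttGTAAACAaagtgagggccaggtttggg
Foxa2: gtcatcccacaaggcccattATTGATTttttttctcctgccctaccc
Cebpa: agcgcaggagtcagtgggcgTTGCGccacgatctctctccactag

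The Hnf4a stretch (chr2:163372790-163372842, plus strand, in mm9 as all positions here) held GTTAAT, the core letters bound by HNF1 factors, as 2 matches on the opposite strand at -113 to -108 and -106 to -101 from the start of the row. The Foxa1 stretch (chr12:58647213-58647259, minus strand) held the forkhead letters TGTTTAC on the opposite strand at -131 to -125. The Foxa2 stretch (chr2:147872892-147872938, minus strand) held the ONECUT letters ATTGATT at -213 to -207, and the Cebpa stretch (chr7:35904107-35904151, plus strand) held the C/EBP core letters TTGCG at -184 to -180. Foxa3 held TTGCG as well, at -183 to -179 on the opposite strand. Among 20877 such windows over all genes, searched on both strands, GTTAAT was present in 5.93%, TGTTTAC in 2.96%, ATTGATT in 2.41% and TTGCG in 21.7%, and none of these motifs shares its letters with another. A match of letters describes the sequence and is not a measured binding site. The row of Hnf4a covers only the downstream start of the gene: the annotation has 7 transcripts, of which 3 start more than 1000 bases upstream, the farthest by 40379 bases.

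Small RNA libraries, with the same group and replicate names as the RNA-seq libraries, gave the share of microRNA reads that was miR-122. This share was 66.4% ± 7.06 at day 0 (SD, n = 3), 11.3% ± 2.70 at day 21 (n = 3) and 0.839% ± 0.426 at day 45 (n = 3). The day 100 liver had 4.46% (95% Wilson interval 4.40 to 4.52) and the day 200 liver 19.1% (19.0 to 19.2), so the 2 late livers held more miR-122 than the day 45 livers. No small RNA library of these knockout livers was analysed here, and the RNA-seq row of the miR-122 gene is listed at 0 in all 14 livers, so the knockout label could not be checked.

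Several features of the RNA-seq libraries bear on what follows. The values are FPKM, fragments scaled to transcript length and library size, which keep no read numbers, so depth is unknown. Each trio of livers (day 0, day 21, day 45 and knockout) held 1 liver with 10.1 to 20.8 FPKM of Ddx3y, a gene of the Y chromosome, and at most 0.133 FPKM of Xist, while the other 10 livers had 12.6 to 71.6 FPKM of Xist and at most 0.036 of Ddx3y. A long-minus-short index, the median log2 deviation of 537 genes with transcripts over 6000 bases minus that of 1311 genes with transcripts under 1500 bases, was -1.21 in knockout A and -0.69 in knockout B. It was -0.40 in day 0 A and between -0.09 and 0.50 in the other 11 livers, knockout C included. Knockout A and B had the lowest values, and day 0 A, a control, also lay below the remaining livers. The hepatocyte gene Alb is listed at 0 in every liver, a failed estimate, while Ttr was 5211 FPKM or more in each. Trf is listed at 0 in 11 livers and reaches 12616 FPKM in the others (day 0 B, day 21 C and knockout C), and Serpina1a is listed at 0 in 10 livers and reaches 2036 FPKM in the others (day 100 and the 3 knockout livers), so neither can be read as a level.

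Per kilobase, Hnf4a and Cebpa were the most abundant of the 8 messenger RNAs. Their mean levels at day 0 were 194 ± 12.6 and 153 ± 44.0 FPKM (SD, n = 3), and over all 14 livers their means stood above 98.2% and 97.6% of the 21888 symbols. Foxa3 followed with 35.1 ± 8.25 FPKM and Prox1 with 16.9 ± 4.96. These 4 kept the first 4 places by mean in all 5 groups. In the knockout the place of Prox1 rested on knockout C (28.2 FPKM, beside 3.19 and 5.20 in A and B), and by median Foxa2 and Foxa1 stood above it. At day 0 the next means were Foxa2 with 10.7 ± 3.96 FPKM, Onecut2 with 8.61 ± 0.068, Foxa1 with 5.39 ± 0.995 and Onecut1 with 4.68 ± 3.74. Among neighbours in this order, the day 0 livers of Hnf4a and Cebpa, of Prox1 and Foxa2, of Foxa2 and Onecut2, and of Foxa1 and Onecut1 overlapped, so their order was within the spread between livers. Cebpa lay above Foxa3, Foxa3 above Prox1 and Onecut2 above Foxa1 in every day 0 liver.

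**Figure D1:**
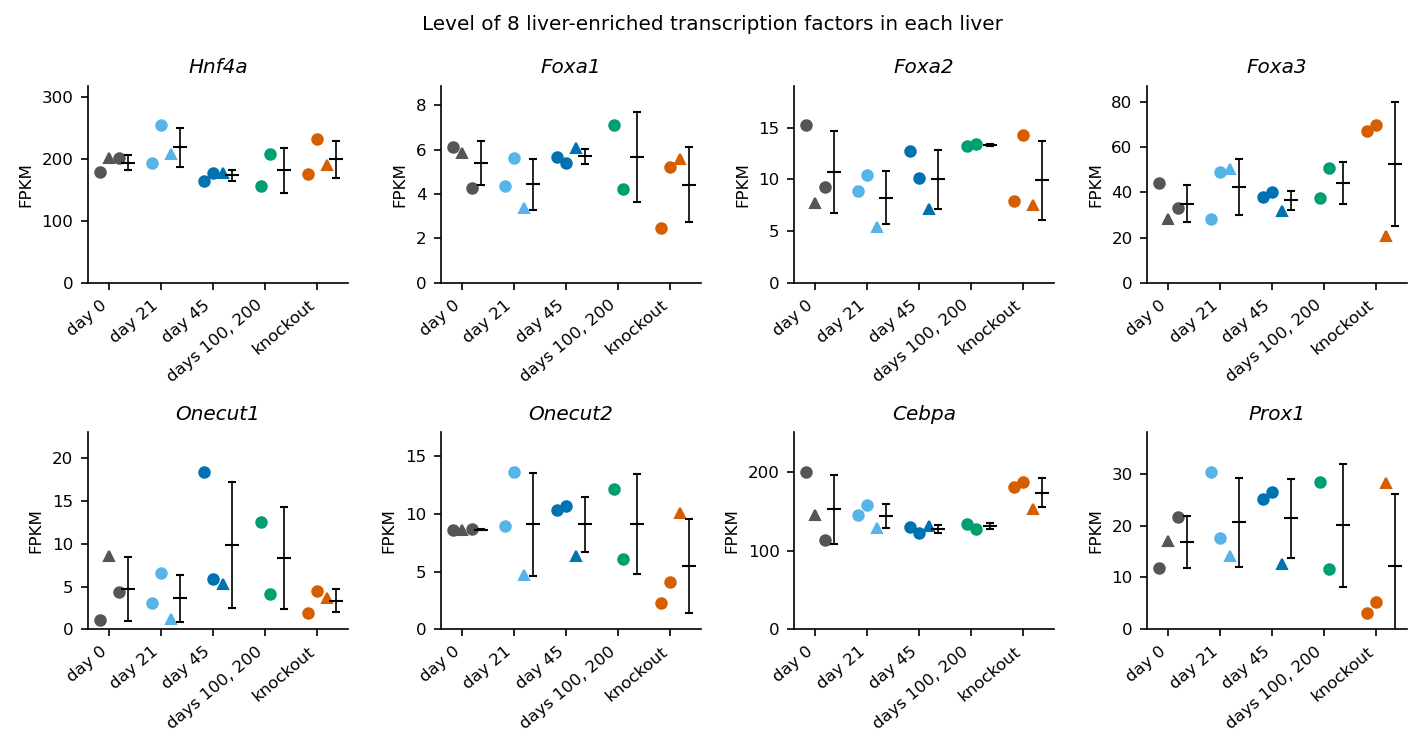
FPKM of each of the 8 factors on the vertical axis, 1 panel per gene, in every liver by group; triangles are the livers with Ddx3y, circles the others, and black bars show the mean ± SD of each group, cut at 0 for Prox1 in the knockout. Hnf4a stays between 156 and 254 FPKM in all 14 livers, whereas Onecut1 runs from 1.09 to 18.4.

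No factor passed the threshold in any comparison when the fit used all 14 livers. The test was limma on log2(FPKM + 1), on which scale all log2 differences below are given, over the 11354 genes whose mean reached 1 FPKM, with p-values adjusted by Benjamini-Hochberg over all of them and a threshold of 0.05. All 8 factors passed this filter. At day 21 against day 0, 0 of 8 factors were called by limma beside 7.62% of all genes tested. At day 45 the count was 0 of 8 beside 26.7%, at days 100 and 200 it was 0 of 8 beside 31.6%, and in the knockout it was 0 of 8 beside 33.8%. In the comparisons that leave out day 0, 0 of 8 were called beside 0.273% at day 45 against day 21, 0.22% at days 100 and 200 against day 45 and 9.44% in the knockout against day 45. With the replicate letter as a block, 1 gene and 0 of 8 factors were called at day 45 against day 21, in place of 31 genes and 0 factors. Without adjustment, 0 of 8 factors had p under 0.05 in 6 of the 7 comparisons, and 1 of 8, Cebpa, in the knockout against day 45, beside 21.7%, 37.3%, 41.4% and 47.3% of all genes in the comparisons of day 21, day 45, days 100 and 200 and the knockout with day 0, 16.0% and 7.84% in the next 2 and 36.4% in the last. The 4 comparisons with day 0 share their 3 control livers, so their values for a factor move together. Hnf4a apart, no factor had livers that did not overlap those of day 0: 0 of 8 at day 21 beside 38.2% of all genes, 1 of 8 at day 45 beside 49.9%, 0 of 8 at days 100 and 200 beside 64.5% and 0 of 8 in the knockout beside 34.4%. In the comparisons that leave out day 0, 1 of 8 separated at day 45 against day 21 (Hnf4a) beside 30.8%, 1 of 8 at days 100 and 200 against day 45 (Foxa2) beside 31.3%, and 2 of 8 in the knockout against day 45 (Onecut1 and Cebpa) beside 23.9%. With single livers left out, 243 to 643 genes were called at day 21 in place of 865, fewest without day 21 C, 1781 to 2741 at day 45 in place of 3027, fewest without day 45 B, and 1626 to 3053 at days 100 and 200 in place of 3592, fewest without the day 100 liver.

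The sizes behind these counts were small for some factors and not resolved for others. The median of the 8 log2 differences was -0.04 at day 21, 0.06 at day 45, 0.10 at days 100 and 200 and -0.14 in the knockout, beside medians of 0.06, 0.20, 0.31 and 0.02 over all genes. None of the 8 reached a log2 difference of 1 in size against day 0, beside 5.39%, 13.5%, 18.8% and 15.7% of all genes. Onecut1 passed 1 at day 45 against day 21 (1.21), 1 of 8 beside 3.30%, and Onecut1 (-1.16) and Prox1 (-1.23) in the knockout against day 45, 2 of 8 beside 7.64%. Their median standard error at day 45 was 0.35 beside 0.21 for all genes, from 0.17 for Hnf4a and 0.19 for Cebpa, below that median, to 0.61 for Prox1 and 0.63 for Onecut1. In bulk liver, fewer hepatocytes and less RNA per hepatocyte cannot be told apart.

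**Figure D2:**
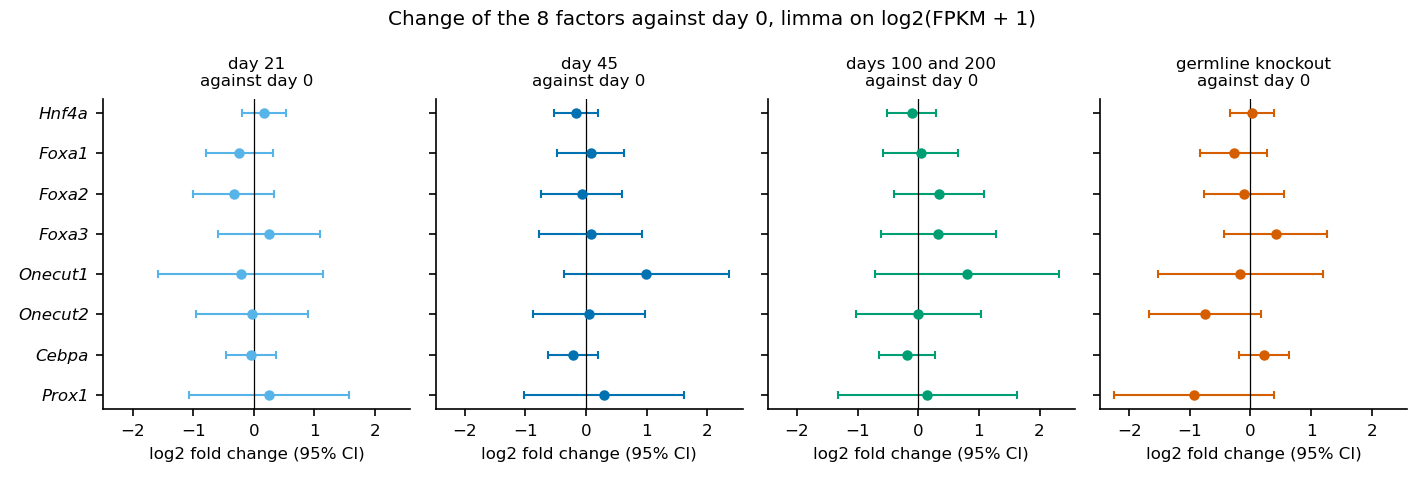
Log2 difference in FPKM + 1 from day 0 (horizontal axis) for each of the 8 factors at day 21, day 45, days 100 and 200 and in the knockout, as points with 95% limma intervals. Each interval includes 0, and those of Onecut1 and Prox1 are the widest.

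Hnf4a, the nuclear receptor, had 179, 201 and 201 FPKM in the day 0 livers A, B and C, 193, 254 and 208 at day 21, and 164, 178 and 178 at day 45. The day 45 livers all lay just below the day 0 livers, the lowest of which had 179.5 FPKM against 178.0 in the highest day 45 liver. This was the only one of the 8 whose day 45 and day 0 livers did not overlap, and the log2 difference of -0.16 (95% interval -0.53 to 0.20) was not called (adjusted p = 0.55, limma). Hnf4a had 156 FPKM at day 100, 207 at day 200, and 175, 232 and 190 in the knockout livers, which spanned the day 0 range. The day 45 livers also lay below all day 21 livers, the lowest of which had 193.4 FPKM, with a log2 difference of -0.32 (-0.69 to 0.04, adjusted p = 0.37, limma). The log2 differences from day 0 were 0.16 at day 21 (adjusted p = 0.65), -0.11 at days 100 and 200 (0.71) and 0.03 in the knockout (0.90, interval -0.33 to 0.40). In fold terms the interval in the knockout ran from 0.793 to 1.31 of the day 0 level of FPKM + 1.

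Cebpa, the leucine zipper factor of energy metabolism genes, had 201, 145 and 114 FPKM at day 0, 146, 159 and 129 at day 21, and 130, 123 and 132 at day 45. Day 0 A was higher than every other floxed liver, and the other 2 day 0 livers overlapped the later ones. The late livers had 134 and 128 FPKM, and the knockout livers 181, 188 and 153. The log2 differences from day 0 were -0.05 at day 21, -0.22 at day 45 (interval -0.63 to 0.20, adjusted p = 0.46), -0.18 at days 100 and 200 and 0.22 in the knockout (-0.20 to 0.63, adjusted p = 0.38). Without day 0 A the day 45 difference was -0.0055 and the knockout difference 0.43, and without day 0 C they were -0.41 and 0.023. The knockout livers all lay above the day 45 livers, by 0.44 on the log2 scale (0.02 to 0.85). The adjusted p from limma was 0.12, and the p before adjustment 0.040. With knockout C as the only knockout liver the difference was 0.26.

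Of the forkhead genes, Foxa3 was the most abundant and supplied 68.6% ± 1.95 (SD, n = 3) of the summed FPKM of the 3 FOXA genes at day 0, 76.2% ± 8.61 at day 21, 70.0% ± 2.50 at day 45, 69.5% ± 6.61 late (n = 2) and 75.4% ± 12.8 in the knockout. Its levels were 44.2, 28.1 and 32.9 FPKM at day 0, 28.2, 48.9 and 50.6 at day 21, 37.8, 40.1 and 31.9 at day 45, and 37.5 and 50.6 in the late livers. These groups overlapped, with log2 differences from day 0 of 0.25, 0.08 and 0.33 (adjusted p = 0.79, 0.93 and 0.61). The knockout livers had 67.1 and 69.7 FPKM in A and B, above all other livers, and 20.9 in C, below all others.

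Foxa2, needed in liver for normal bile acid handling, had 15.2, 7.70 and 9.28 FPKM at day 0, 8.86, 10.5 and 5.40 at day 21, 12.8, 10.2 and 7.10 at day 45, 13.2 and 13.4 late, and 7.91, 14.3 and 7.52 in the knockout. All groups overlapped day 0. The lowest adjusted p against day 0 was 0.50, at days 100 and 200, for a log2 difference of 0.34 (interval -0.40 to 1.08). In each of the 4 trios the lowest Foxa2 value was that of the liver with Ddx3y, which 3.57% of all genes tested also showed. Neither late liver had Ddx3y, and with a term for the Ddx3y livers the late difference was 0.14 for Foxa2 and 0.17 for Foxa3. None of the other 7 factors was lowest or highest in that liver in all 4 trios, and Foxa3 and Onecut2 were lowest there in 3 of 4.

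Foxa1, the third FOXA gene, was lower, with 6.09, 5.83 and 4.25 FPKM at day 0, 4.34, 5.62 and 3.36 at day 21, 5.68, 5.38 and 6.05 at day 45, 7.09 and 4.24 late, and 2.48, 5.21 and 5.57 in the knockout. Knockout A held the lowest value of the 14. The log2 differences from day 0 lay between -0.28 in the knockout (interval -0.83 to 0.27, adjusted p = 0.40) and 0.08 at day 45 (-0.47 to 0.63, adjusted p = 0.87).

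The ONECUT genes varied more than the forkhead genes. Onecut1, the gene of HNF6, had 1.09, 8.55 and 4.41 FPKM at day 0, 3.05, 6.64 and 1.20 at day 21, 18.4, 5.91 and 5.30 at day 45, 12.6 and 4.09 at days 100 and 200, and 1.95, 4.52 and 3.65 in the knockout. The 3 day 0 livers alone covered a wider range than the knockout or day 21 livers, and a single day 45 liver stood above the rest. Its log2 difference of 0.99 at day 45 was the largest of any factor against day 0, with an interval from -0.37 to 2.35 and an adjusted p of 0.29 in limma. Leaving out day 0 A gave 0.39, leaving out day 0 B 1.49 and leaving out day 45 A 0.47, so this estimate rested on single livers of both groups. Between day 21 and day 45 the log2 difference was 1.21 (-0.15 to 2.57, adjusted p = 0.37), and 0.69 without day 45 A. All knockout livers lay below all day 45 livers, with a log2 difference of -1.16 (-2.52 to 0.20, adjusted p = 0.20).

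Onecut2, a near relative of Onecut1 with a longest annotated transcript of 15906 bases against 1815, was even at day 0 with 8.58, 8.57 and 8.69 FPKM. It then had 8.93, 13.6 and 4.69 FPKM at day 21, 10.3, 10.7 and 6.37 at day 45, and 12.2 and 6.05 late, values that fell on both sides of day 0. The knockout livers had 2.28, 4.13 and 10.0 FPKM, A and B below all floxed livers and C above all day 0 livers. The log2 difference in the knockout was -0.75 (-1.68 to 0.17, adjusted p = 0.18), and those at day 21, day 45 and late were between -0.04 and 0.04. The ratio of Onecut1 to Onecut2 FPKM ran from 0.127 in day 0 A to 1.79 in day 45 A. Both genes are in the study's list of predicted let-7 targets, and none of the 8 factors is in its list of predicted miR-122 targets.

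Prox1, the homeodomain factor, had 11.8, 17.1 and 21.7 FPKM at day 0, 30.4, 17.5 and 14.1 at day 21, 25.2, 26.4 and 12.7 at day 45, and 28.4 and 11.6 at days 100 and 200. The floxed groups overlapped, and their log2 differences from day 0 were 0.25, 0.30 and 0.15 (adjusted p = 0.88, 0.79 and 0.90). In the knockout the values were 3.19 and 5.20 FPKM in A and B, the lowest of the 14 livers, and 28.2 in C, higher than every day 0 liver. The log2 difference over the 3 was -0.93, with an interval from -2.25 to 0.39 (adjusted p = 0.24, limma).

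The knockout result for Foxa3, Onecut2 and Prox1 therefore depended on which knockout livers were used. Knockout C was also the only knockout liver with Ddx3y (13.3 FPKM), while A and B had 12.6 and 19.8 FPKM of Xist. Fits with and without knockout C therefore differ in this as well. With knockout C left out, limma called 3 of 8 factors against day 0: Foxa3 was higher by 0.97 (0.41 to 1.53, adjusted p = 0.0061), Onecut2 fell by 1.23 (interval -2.05 to -0.41, adjusted p = 0.013) and Prox1 fell by 1.77 (-2.72 to -0.82, adjusted p = 0.0039). The same fit called 7088 genes, 62.4% of all tested, against 3833 with all 3 livers, so 3 of 8 is below the share of all genes. Against day 45 it called 4 of 8, these and Cebpa at 0.52 (adjusted p = 0.041), beside 52.2% of all genes. With knockout C as the only knockout liver, a fit in which its spread is borrowed from the other groups, the same 3 genes had log2 differences from day 0 of -0.70, 0.20 and 0.75, each in the other direction, and 0 of 8 were called beside 671 genes, 5.91%. The count of 3833 genes also moved to 1986 without knockout A, 1630 without knockout B, 2144 without day 0 B and 2543 without day 0 C, with 0 factors called in each.

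The levels of these same genes followed the long-minus-short index over the 14 livers. Pearson's r with the index was 0.92 for Prox1 (permutation p = 4.0e-05, adjusted over the 8 factors 0.00032, Spearman's rho 0.84 with adjusted p = 0.0024) and 0.87 for Onecut2 (p = 0.00033, adjusted 0.0013, rho 0.82 with adjusted p = 0.0025). It was -0.67 for Foxa3 (adjusted p = 0.020, rho -0.58 with adjusted p = 0.084) and -0.61 for Cebpa (adjusted p = 0.039, rho -0.18 with adjusted p = 0.69). Without knockout A and B, the 2 livers farthest from the median of the index, r was 0.69 for Prox1, 0.58 for Onecut2, -0.29 for Foxa3 and -0.28 for Cebpa, so the relations of Foxa3 and Cebpa rested on those livers. Within the 11 floxed livers r was 0.69, 0.57, -0.26 and -0.32. The permutations exchanged livers across groups, so their p-values do not separate differences between groups from a relation within them. No p was computed without knockout A and B or within the floxed livers. For Foxa1, Onecut1, Foxa2 and Hnf4a r was 0.53, 0.46, -0.13 and 0.08, with adjusted permutation p of 0.082, 0.13, 0.76 and 0.78. The longest annotated transcripts had 4133 bases for Prox1, 15906 for Onecut2, 2037 for Foxa3 and 2634 for Cebpa. For Foxa1, Onecut1, Foxa2 and Hnf4a they had 3188, 1815, 2128 and 4362, so the order of r was not the order of these lengths. None of the 8 genes was used to compute the index. With the index as a term in the limma fit, chosen after seeing the data, the knockout differences were 0.10 for Prox1, -0.08 for Onecut2 and -0.16 for Foxa3, and 0 of 8 factors were called beside 24.3% of all genes. The part of transcript length or RNA quality in these differences was not tested further, and the knockout and the index cannot be told apart in knockout A and B. Between these 2 livers and knockout C, which had Ddx3y, the index and Ddx3y cannot be told apart either.

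**Figure D3:**
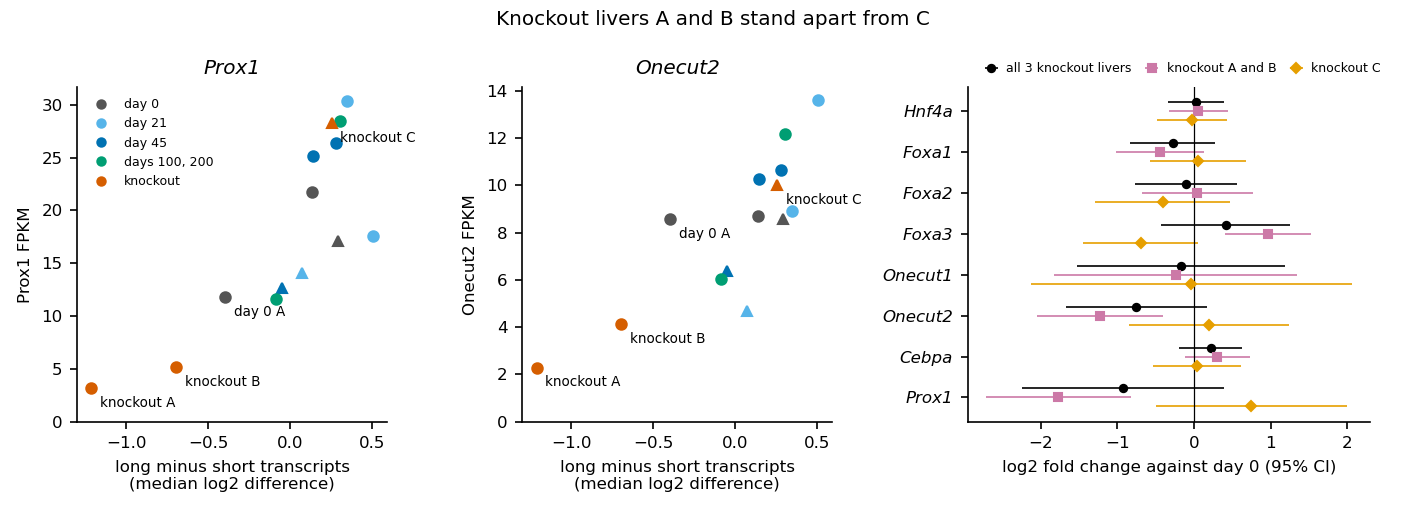
The left and middle panels plot FPKM of Prox1 and Onecut2 (vertical) against the long-minus-short index (horizontal, log2) for the 14 livers, coloured by group, triangles being livers with Ddx3y, and the right panel gives the log2 difference from day 0 of the 8 factors with 95% limma intervals for all 3 knockout livers, for A and B, and for C alone, whose interval borrows the spread of the other groups. Knockout A and B have the lowest index and the lowest values of both genes, and for Foxa3, Onecut2 and Prox1 the points of A and B lie on the other side of 0 from that of C.

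The factors also differed in how far livers of 1 group spread. The SD of log2(FPKM + 1) within groups was 0.18 for Hnf4a and 0.22 for Cebpa, larger than in 15.6% and 25.4% of the genes of a like level. It was 0.34 for Foxa1, 0.42 for Foxa2 and 0.54 for Foxa3, above 68.1%, 81.6% and 90.0% of such genes. The widest were Onecut2 with 0.59, Prox1 with 0.86 and Onecut1 with 0.89, above 95.2%, 98.3% and 98.9% of genes of a like level. Without knockout C the standard error of the day 45 difference went from 0.61 to 0.39 for Prox1, from 0.43 to 0.33 for Onecut2 and from 0.39 to 0.23 for Foxa3, but from 0.63 to 0.65 for Onecut1. Between the lowest and the highest of the 14 livers the FPKM differed 1.63-fold for Hnf4a, 1.77-fold for Cebpa, 2.82-fold for Foxa2, 2.85-fold for Foxa1, 3.33-fold for Foxa3, 5.96-fold for Onecut2, 9.52-fold for Prox1 and 16.9-fold for Onecut1.

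Across the 14 livers the levels of Onecut2 and Prox1 varied together (Pearson's r = 0.87 on log2 values), as did those of Foxa1 and Onecut2 (r = 0.75), while Foxa3 ran opposite to Prox1 (r = -0.77) and to Onecut2 (r = -0.61). These are descriptions over libraries that share the index above and the same groups. Among all genes tested, the pattern most like Prox1 was that of Lyst (r = 0.98), with a transcript of 11806 bases, followed by Nol11 (r = 0.97) with 3158 and Wdfy2 (r = 0.96) with 2011, beside a median of 3028.5 bases over the genes tested. Onecut2 was most like Ehbp1 (r = 0.95), Ugcg and Usp31, Foxa3 most like Apbb3 (r = 0.91), Zfp276 and 5830415F09Rik, and Foxa2 most like Ube2e2 (r = 0.88), 1190007F08Rik and Sall1. The nearest genes of Cebpa were Aven (r = 0.85), Mrps15 and Pdcd5, and those of Onecut1 were Zfp609 (r = 0.82), Slc25a30 and D630039A03Rik. Foxa1 was most like Dgkq (r = 0.81), Taf4a and 1190002N15Rik, and Hnf4a most like Arhgef26 (r = 0.78), Rgs16 and Slc39a14. Hnf4a thus had the weakest nearest match of the 8.

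Genes known to be regulated by these factors were followed as lists, which, like the lists below, were chosen with earlier results of these data known. At day 45 against day 0, limma called 1 higher and 3 lower of 23 HNF4A target genes: Apoc2, a cofactor of lipoprotein lipase, was higher (410 ± 77.0 to 1068 ± 87.8 FPKM, SD, n = 3, log2 difference 1.39, adjusted p = 0.00047), while G6pc, the enzyme that releases glucose (396 ± 146 to 62.4 ± 15.6, -2.59, adjusted p = 0.0065), Pklr, liver pyruvate kinase (129 ± 22.9 to 55.6 ± 15.5, -1.22, adjusted p = 0.0027), and Apoa2, an apolipoprotein of high-density lipoprotein (17352 to 9400, -0.88, adjusted p = 0.041), were lower. The Apoa2 call was lost when any of the 6 livers was left out. The FOXA target list had 1 higher and 1 lower of 11, the fetal liver gene Afp (0.617 ± 0.065 to 8.15 ± 4.11 FPKM, 2.41, adjusted p = 0.00046) and G6pc. The ONECUT list had 0 higher and 1 lower of 7 and the CEBPA list 0 higher and 1 lower of 11, in both cases G6pc, which is in all 4 lists. The background was 23.7% of all genes called higher and 2.99% called lower, and the list medians were -0.26, 0.00, -0.02 and -0.13 beside 0.20 for all genes. The first 3 count Serpina1a, listed at 0 in all 6 livers, and without it they were -0.29, 0.014 and -0.14. Leaving out day 45 A gave 1 higher and 2 lower in the ONECUT list. With knockout A and B left out of the shared fit, which was chosen after seeing the data, more HNF4A and CEBPA targets were called. The share of all genes called in that fit is not given here, so these calls are not set beside a background.

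At day 21, in the fit of all 14 livers, 0 genes of these 4 lists were called by limma beside 6.2% of all genes called higher and 1.42% lower. In the livers of days 100 and 200, 1 HNF4A target was higher and 6 were lower, the FOXA list had 1 and 3, the ONECUT list 1 and 1, and the CEBPA list 0 and 1, beside 28.4% higher and 3.21% lower over all genes. The lower counts depended on single livers. Of the 6 lower HNF4A targets, 1 was called without day 0 B, 2 without day 0 C, 0 without the day 100 liver, and 4 without day 0 A or the day 200 liver. The FOXA, ONECUT and CEBPA lists each had 0 lower without day 0 B, without day 0 C or without the day 100 liver. In the knockout the counts were 3 and 5, 2 and 1, 1 and 1, and 1 and 3, beside 19.3% higher and 14.5% lower. Each of the first 3 lists counts Serpina1a among its higher genes, and without it these counts were 2 and 5, 1 and 1, and 0 and 1. With knockout C left out the 4 lists had 5 and 7, 3 and 3, 1 and 3, and 1 and 4, in a fit that called 62.4% of all genes. With knockout B left out they had 3 and 2, 2 and 1, 1 and 0, and 0 and 0, in a fit that called 1630 of 11354 genes. The lower ONECUT call was also lost without day 0 A or knockout A, and the higher CEBPA call without day 0 B, day 0 C or knockout A. Apoc2 was among the higher genes at day 45, at days 100 and 200 and in the knockout, with a mean of 1031 FPKM late and 1140 in the knockout.

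Of 38 other transcription factors of liver that were tested, 4 were called higher and 1 lower at day 45, beside 23.7% and 2.99% of all genes. Dbp and Tef, PAR leucine zipper factors that follow the time of day, went from 15.7 to 61.4 FPKM (2.61, adjusted p = 0.012) and from 23.1 to 49.2 FPKM (1.18, adjusted p = 0.013). Their day 0 livers were far apart, with Dbp at 38.5, 5.99 and 2.60 FPKM, and the hours at which livers were taken are not in the sources used here. Gata4 and Gata6, zinc finger factors, went from 6.54 to 10.8 FPKM (0.64, adjusted p = 0.026) and from 2.22 to 4.70 FPKM (0.77, adjusted p = 0.043), and Atf5 went from 182 ± 36.2 to 76.1 ± 8.89 FPKM (-1.23, adjusted p = 0.0044). The total of 5 called was 3 without day 0 B, 2 without day 0 C and 3 without day 45 B, and Atf5 was kept in each. The Gata4 call was lost in 4 of the 6 leave-outs and after median-ratio scaling or quantile normalization, and the Gata6 call in 3 of 6, and under 5 of 11 other settings, the replicate block among them (adjusted p = 0.067). The Tef call was lost in 2 of 6 and after median-ratio scaling (0.91, adjusted p = 0.056), and the Dbp call in 1 of 6. The list's median was 0.04. At day 21 the same list had 2 higher and 1 lower (beside 6.2% and 1.42%), with 0 higher when any 1 of the 6 livers but day 0 A was left out, at days 100 and 200 it had 3 and 2 (beside 28.4% and 3.21%), and in the knockout 3 and 6 (beside 19.3% and 14.5%), but 0 in all when day 0 B, knockout A or knockout B was left out.

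Factors of bile duct and fetal liver cells were followed as a further list. At day 45, 4 of 8 tested were called higher, beside 23.7% of all genes, and 0 lower: Ehf (0.285 ± 0.062 to 5.63 ± 3.80 FPKM, log2 difference 2.21, adjusted p = 0.00076), Sox4 (0.524 ± 0.226 to 5.04 ± 3.61, 1.84, adjusted p = 0.0039), Elf3 (0.408 ± 0.103 to 3.01 ± 1.46, 1.45, adjusted p = 0.0092) and Sox9, a marker of bile duct cells (0.702 ± 0.280 to 3.07 ± 2.10, 1.15, adjusted p = 0.016). For each of the 4, day 45 B held the highest value, and without that liver 2 of 8 were called, Ehf and Sox4. Sox9 was also lost without day 0 A or day 0 C, and after quantile normalization Elf3 (adjusted p = 0.092, limma) and Sox9 (adjusted p = 0.18) were not called. The list's median was 1.21 beside 0.20 for all genes. At day 21, 0 of 8 were called, beside 6.2% of all genes called higher and 1.42% lower. At days 100 and 200 it was 6 higher and 0 lower, beside 28.4% and 3.21% of all genes, and in the knockout 4 higher and 1 lower, beside 19.3% and 14.5%. The late count was 4 higher without the day 100 liver, and the knockout count was 2 higher without day 0 A, day 0 C or knockout B.

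**Figure D4:**
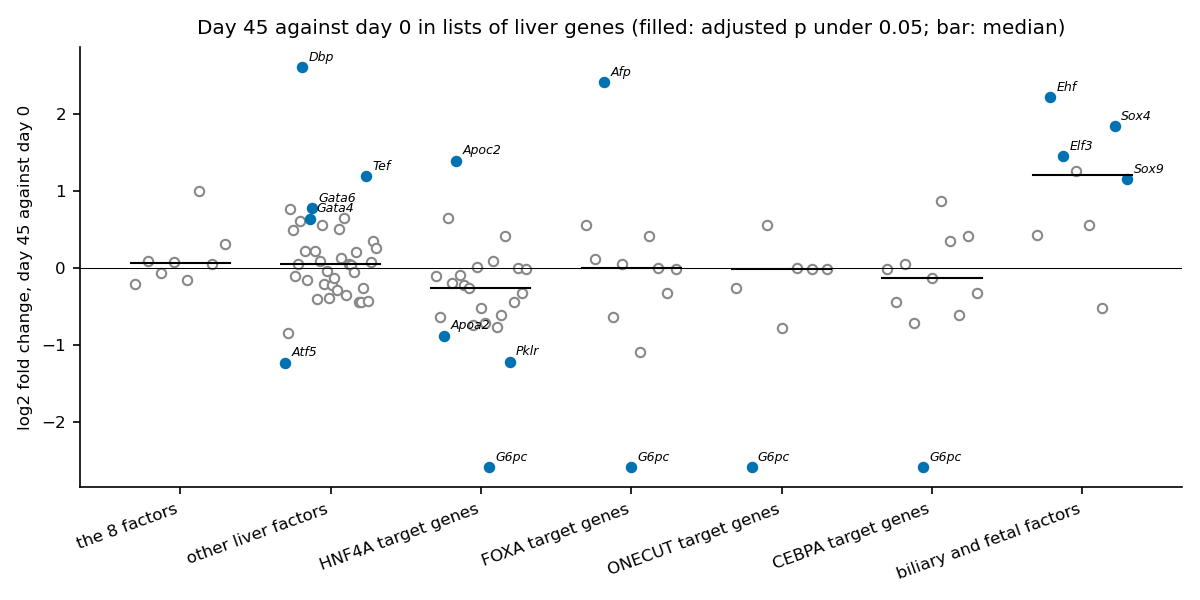
Log2 difference in FPKM + 1 at day 45 against day 0 (vertical axis) for each tested gene of the 8 factors and of the 6 other gene lists (horizontal axis), with genes called by limma filled and named and a bar at each list's median. The 8 factors lie between -0.22 and 0.99 with 0 called, and the 4 called genes of the bile duct and fetal list lie between 1.15 and 2.21.

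Markers of other cell types moved in the same livers. At day 45, limma called all 6 tested cholangiocyte markers higher, beside 23.7% of all genes, and the summed FPKM of the list went from 46.5 to 59.8 at day 0 to 409 to 1342. The summed level was 139 to 205 at day 21, 1928 to 2928 late and 553 to 801 in the knockout. Over all livers the median of Spp1 was 444 FPKM, beside medians of 0.30 to 10.4 for the other genes of this list. These sums therefore mostly followed Spp1 and do not measure bile duct cells. The 6 genes called at day 45 were Krt7, Krt19, Epcam, Sox9, Spp1 and Muc1. All 7 macrophage markers (sum 225 to 408 at day 0, 799 to 897 at day 45), 2 of 2 granulocyte markers (4.36 to 17.7, then 40.7 to 79.5), 7 of 7 lymphocyte markers (3.38 to 8.91, then 21.0 to 28.2) and 8 of 8 stellate and fibroblast markers (134 to 185, then 361 to 589) were higher too. So were 4 of 4 proliferation markers (1.24 to 5.67, then 10.2 to 19.7) and 3 of 7 endothelial markers (36.4 to 73.5, then 98.0 to 124), but 0 of 3 erythroid markers. Without day 0 B, 5 of 8 stellate and fibroblast and 1 of 2 granulocyte markers were called. Without day 45 B, 5 of 8 and 1 of 2 of these, 4 of 6 cholangiocyte and 2 of 4 proliferation markers were called, and without day 45 C 1 of 2 granulocyte markers. Of the lymphatic endothelial markers, listed because PROX1 also marks lymphatic endothelium, 1 could be tested, Flt4, and it was higher. Pdpn and Ccl21a were under the filter. The summed level of the list was 3.45 to 5.52 FPKM at day 0 and 8.27 to 11.998 at day 45. Over all livers the median was 7.43 FPKM for Flt4, 0.50 for Pdpn and 0.007 for Ccl21a. The sum therefore mostly followed Flt4, and a change in lymphatic endothelium cannot be read from this 1 gene. Of 13 hepatocyte markers, 1 was higher, Cyp3a11, and 0 lower, and the Cyp3a11 call was lost when any 1 of the 6 livers but day 0 B was left out. The summed level of the list was 33506 to 36983 FPKM at day 0 and 25317 to 31850 at day 45, 30863 to 36844 at day 21, 18752 to 27315 late and 33571 to 43016 in the knockout. Without Alb, Trf and Serpina1a it was 30704 to 33642 at day 0, 29000 to 31036 at day 21, 25317 to 31850 at day 45, 17765 and 27315 late and 29114 to 34580 in the knockout. The part of these other cells in the levels of the 8 factors was not tested.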

How the data were processed

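Poly-A RNA-seq of 14 livers and small RNA-seq of the floxed livers were used. The authors aligned paired reads to mm9, ran Cufflinks 2.2.1 with quartile normalization, removed ribosomal, small nucleolar and mitochondrial sequences, and deposited FPKM per gene. For small RNA the authors aligned reads with Bowtie 0.12.7 and deposited RPM with 1 added, which was subtracted here. Small RNA libraries held 80096 to 866319 reads, recovered from the RPM step, and Wilson intervals cover counting error only. For FPKM the depth is unknown. Replicates are livers labelled A to C, taken as separate mice, which the labels do not state, so p-values measure the spread between these libraries.

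Rows of repeated symbols among 22308 rows were summed. limma 3.58.1 in R 4.3.3 (eBayes with trend) was fitted to log2(FPKM + 1) of the 11354 genes whose mean reached 1 FPKM, as 1 model of 5 groups with 7 contrasts and no covariate. Python 3.11.15, pandas 2.3.3, NumPy 2.4.6, SciPy 1.17.1 and matplotlib 3.10.9 were used for the rest, with 100000 permutations for each two-sided correlation test. The fit was tested on simulated data. Promoter windows came from the mm9 genome and transcript lengths from GENCODE vM1, which gave lengths for 99.1% of the genes with at least 5 FPKM used for the long-minus-short index. Genes of a like level, for the spread, are those within 0.5 of its mean log2(FPKM + 1).

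The 8 members and all lists were chosen with earlier results of these data known. All 8 are named. From the lists, the genes called at day 45 are named, and for each member the 3 genes with the highest Pearson's r. Genes under the filter, besides Alb, Pdpn and Ccl21a, included Onecut3, Nr2f1, Klf5, Grhl2, Hmga2, Cftr, Mpo, Elane and Ccnb1, and Spi1 and Ly6g had no row of that symbol. Over all groups the replicate letters did not pair the livers, but day 21 and day 45 livers of 1 letter deviated together from their group means (r = 0.27, 0.24 and 0.50 for A, B and C), so the replicate block is given beside that comparison. In both of these trios C was the liver with Ddx3y, so livers of 1 letter there also shared the presence or absence of Ddx3y. Alternatives were another pseudocount, filter, scaling, spread model and sample set, a replicate block, each liver left out, and, added after seeing the data, terms for Ddx3y livers and for the index, knockout A and B left out, and list counts and sums without Alb, Trf and Serpina1a.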

Additional observations from a re-analysis of the deposited data

How the results depend on the processing

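With 12 settings other than leaving out 1 liver, and each liver left out in turn, the count of factors called stayed at 0 in 120 of 122 recomputed counts, and the exceptions were the knockout comparisons without knockout C (0 to 3 against day 0 and 0 to 4 against day 45 over the livers left out). Of 560 recomputed differences of a factor from day 0, 60 turned direction, none of which was called, and 3 were called.

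Directions turned as follows, in log2 units from day 0. A pseudocount of 0.1 gave Onecut2 -0.0042 late. Median-ratio scaling gave Foxa1 -0.16, Foxa3 -0.20 and Onecut2 -0.21 at day 45, and Foxa1 -0.30, Foxa2 -0.029, Foxa3 -0.060, Onecut2 -0.35 and Prox1 -0.23 late. Quantile normalization gave Cebpa 0.087 at day 21, Foxa1 -0.25, Foxa3 -0.020 and Onecut2 -0.24 at day 45, and Hnf4a 0.060, Foxa1 -0.48, Foxa2 -0.024, Onecut2 -0.44 and Prox1 -0.16 late. A term for Ddx3y livers gave Onecut2 -0.022 late. A term for the long-minus-short index gave Cebpa 0.020 and Prox1 -0.30 at day 21, Onecut2 -0.10 at day 45, Foxa1 -0.0081, Onecut2 -0.11 and Prox1 -0.026 late, and Foxa3 -0.16, Onecut1 0.50 and Prox1 0.10 in the knockout. Leaving out knockout A and B gave Hnf4a -0.025, Foxa1 0.053, Foxa3 -0.70, Onecut2 0.20 and Prox1 0.75 in the knockout. Median-ratio scaling and quantile normalization moved the median of all genes by -0.23 and -0.28 at day 45 and by -0.34 and -0.43 late, and 2 and 2 factors were above day 0 at day 45 instead of 5. Of the genes called at day 45, 88.8% were higher as reported, 66.8% after median-ratio scaling and 54.5% after quantile normalization, and late 89.8%, 63.6% and 49.5%.

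With single livers left out, ranges that crossed 0 were -0.24 to 0.16 for Cebpa, -0.82 to 0.28 for Onecut1, -0.35 to 0.33 for Onecut2 and -0.055 to 0.47 for Prox1 at day 21, -0.055 to 0.16 for Foxa1, -0.26 to 0.19 for Foxa2, -0.066 to 0.25 for Foxa3 and -0.077 to 0.25 for Onecut2 at day 45, -0.38 to 0.029 for Cebpa, -0.27 to 0.35 for Foxa1, -0.31 to 0.096 for Hnf4a, -0.45 to 0.45 for Onecut2 and -0.46 to 0.76 for Prox1 late, and -0.45 to 0.012 for Foxa1, -0.38 to 0.15 for Foxa2, -0.085 to 0.12 for Hnf4a and -0.77 to 0.33 for Onecut1 in the knockout. In the knockout, Foxa3 ran from 0.12 to 0.97, Onecut2 from -1.23 to -0.35 and Prox1 from -1.77 to -0.37.

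Counts over all genes moved more. In the order day 21, day 45, days 100 and 200 and knockout against day 0, they ran over the livers left out from 243 to 643, 1781 to 2741, 1626 to 3053 and 1630 to 7088, and for day 45 against day 21, late against day 45 and knockout against day 45 from 0 to 180, 1 to 133 and 231 to 5922. A pseudocount of 0.1 gave 58 at day 45 against day 21 and 2 late against day 45. No filter gave 5816 late, 10 at day 45 against day 21 and 228 late against day 45. A mean of at least 5 FPKM gave 484, 1477, 1679 and 2431 against day 0 and 9, 1 and 394 in the other comparisons. Median-ratio scaling gave 2 at day 45 against day 21 and 413 in the knockout against day 45. Quantile normalization gave 531 at day 21, 2012 at day 45, and 6, 48 and 475 in the comparisons without day 0. Fitting only the groups compared gave 1774 at day 21, 1109 in the knockout, and 3, 0 and 63 in those without day 0. The Ddx3y term gave 65 at day 45 against day 21 and 1870 in the knockout against day 45. The index term gave 1702 at day 21, and 74, 45 and 373 in those without day 0. Without knockout A and B the counts were 1912 at day 21, 671 in the knockout, and 775, 66 and 296 in those without day 0. The cause of these moves was not tested.

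Over all pairs of groups, 8 of 18 same-letter correlations were over 0.1, and they ran from -0.45 to 0.50. The replicate block called 0 factors, and gave 470 genes at day 21, 1 at day 45 against day 21 and 447 in the knockout against day 45.

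Of the genes named at day 45, Afp, Apoc2, Atf5, Ehf, G6pc, Pklr and Sox4 were called with any single liver left out and under all other settings in which they were tested. With 2 or 3 livers a group and unknown depth, only the intervals above show what differences in a factor could have been missed. The order of levels by median instead of mean differed in 3 places at day 45 and 4 in the knockout.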
